A study of Homo sapiens with 9 samples.

Results

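HLA class I molecules display peptides from inside a cell to CD8+ T cells and natural killer cells. The genes followed here encode the heavy chains HLA-B, HLA-C, HLA-E and HLA-F, the shared light chain B2M, the peptide transporter subunits TAP1 and TAP2, and TAPBP (tapasin), the chaperone that holds an empty class I molecule at the transporter. They were chosen by gene symbol from the array's probe table, which gave 8 genes and 14 probes of 30818 genes and 47322 probes. Of these 14 probes, 10 had a detection p under 0.05 on at least 3 of the 9 arrays, as did 19802 of the 43906 probes with a usable gene name, and all 8 genes kept a probe.

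The RNA came from tumours of Hep3B, an established human hepatocellular carcinoma line, grown for about 5 weeks in the livers of Nod/Scid mice. Each mouse received 1 intravenous injection and its tumour was taken 24 hours later. The 3 groups were dilution buffer, empty liposomes, which are the carrier without RNA, and MRX34, which carries a synthetic copy of the microRNA miR-34a in such liposomes, with 3 arrays in each. Nod/Scid mice lack functional T and B lymphocytes, Hep3B is a single line, and whole tumour RNA carries material from host tissue as well. The labels do not state whether the arrays of a group came from separate mice, so p-values measure only the spread between these samples. In whole-tumour RNA, fewer cells of a type and less RNA per cell cannot be told apart.

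In a working presentation pathway, proteasomes cut cytosolic proteins into peptides, TAP1 and TAP2 together pump them into the endoplasmic reticulum, and tapasin, calreticulin (CALR) and PDIA3 keep a heavy chain with B2M ready until a peptide fits. HLA-B and HLA-C are classical, highly polymorphic heavy chains. HLA-E presents mainly signal peptides of other class I chains to natural killer receptors, and HLA-F is a further non-classical chain. Interferon-gamma raises most of these genes through IRF1 and the transactivator NLRC5, and hepatocytes at rest carry little class I on their surface.

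The strand supplied by MRX34 corresponds to mature hsa-miR-34a-5p, encoded on the minus strand at chr1:9151735-9151756 (GRCh38.p14). It is shown because it is the agent tested, with the seed, bases 2 to 8, in capitals.
hsa-miR-34a-5p: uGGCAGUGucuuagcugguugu

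Apart from B2M on chromosome 15 (44711517 to 44718145), all of these genes lie on chromosome 6 in the major histocompatibility complex. In GRCh38.p14, HLA-F spans 29723434 to 29738532, HLA-E 30489509 to 30494194, HLA-C 31268749 to 31272092, HLA-B 31353875 to 31357179, TAP2 32821831 to 32838739, TAP1 32845209 to 32853704 and TAPBP 33299694 to 33314078. Promoter sequences from RefSeq, 250 bases before to 50 after the start site, matched 7 of the 8 genes. Stretches from 5 of them are shown, for the gene with the lowest p in the MRX34 comparison (TAPBP), for TAP1 and TAP2, whose levels followed each other across arrays, and for the classical heavy chains HLA-B and HLA-C. Each is written on the gene's own strand. Capitals mark matches, on either strand, to GGGNNTTNCC (a kappa-B type motif), GAAANNGAAA or its shorter form AANNGAAA (motifs of the interferon regulatory factor type, which overlap each other), TGACGC and CCAAT.
TAPBP chr6:33314075-33314142 minus strand: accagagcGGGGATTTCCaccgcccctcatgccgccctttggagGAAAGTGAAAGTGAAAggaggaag
TAP1 chr6:32853759-32853954 minus strand: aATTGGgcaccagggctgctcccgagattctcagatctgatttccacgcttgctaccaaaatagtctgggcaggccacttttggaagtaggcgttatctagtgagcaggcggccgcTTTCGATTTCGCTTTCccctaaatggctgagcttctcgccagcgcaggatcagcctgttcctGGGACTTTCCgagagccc
TAP2 chr6:32838761-32838809 minus strand: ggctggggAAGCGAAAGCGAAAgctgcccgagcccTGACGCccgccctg
HLA-B chr6:31357223-31357364 minus strand: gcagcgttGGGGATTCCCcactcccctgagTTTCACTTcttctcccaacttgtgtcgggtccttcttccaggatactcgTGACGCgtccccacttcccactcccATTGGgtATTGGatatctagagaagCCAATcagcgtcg
HLA-C chr6:31272136-31272292 minus strand: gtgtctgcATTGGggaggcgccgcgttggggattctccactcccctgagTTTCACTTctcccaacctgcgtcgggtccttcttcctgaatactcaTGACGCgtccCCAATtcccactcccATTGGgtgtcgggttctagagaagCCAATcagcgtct

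Of the 7 promoters, 5 (B2M, HLA-F, TAP1, TAP2 and TAPBP) held GAAANNGAAA, against 3.57% of 35116 promoters of the same length. This motif occurred as a pair of overlapping copies in B2M, TAP1 and TAPBP, in TAPBP at -20 to -11 and at -14 to -5 from the start site. The shorter AANNGAAA was found in all 7 and in 22.8% of all promoters. GGGNNTTNCC was present in 4 (B2M, HLA-B, TAP1 and TAPBP) against 5.68%, TGACGC in 3 (HLA-B, HLA-C and TAP2) against 9.14%, and CCAAT in 5 (all but TAP2 and TAPBP) against 34.6%. A match is a run of letters, and no binding was measured.

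The arrays differed in brightness and in the level of the liver enzyme genes GNMT and OTC, which were chosen after their values were seen. Mean deposited intensity in the series value table ranged from 163 (empty liposomes 1) to 616 (dilution buffer 2), and between 31.2% and 46.6% of named probes were above background. The hepatocellular tumour markers AFP, GPC3 and ALB were above background on all 9 arrays, varying 1.23-fold, 1.91-fold and 1.26-fold. ALB read 47789, the highest intensity on any array, on dilution buffer 1, dilution buffer 3 and MRX34 1. Its range was therefore limited by the top of the scale. The mean log2 level of GNMT and OTC, enzymes of mature hepatocytes, ran from 7.73 (MRX34 3) to 14.32 (dilution buffer 3), and was 10.9 ± 3.13, 12.1 ± 1.39 and 9.59 ± 1.68 (SD, n = 3) after buffer, empty liposomes and MRX34. Whether that level reflects host liver in the sample or expression in the tumour cells was not tested. The 2 arrays with the highest such level, dilution buffer 3 and empty liposomes 1, were also the 2 dimmest, with mean intensities of 249 and 163, and they stand apart for several class I probes described below. Of 13 leukocyte markers, 7 passed the detection filter. The mean log2 level of those 7 ranged from 6.93 to 7.27 after buffer, from 7.19 to 7.52 after empty liposomes and from 7.24 to 7.72 after MRX34, and PTPRC, CD3E, NKG7 and ITGAM were above background on no array. Any leukocytes in these tumours would come from the mouse host, while the markers are listed by human gene symbols. Whether the marker probes bind mouse transcripts was not tested, nor was the part of such cells in the results below.

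Levels are log2 intensities after background correction and quantile normalization, and a difference of 1 log2 unit is a doubling. No class I or loading gene, and none of the 19802 probes tested, passed the test in any of the 4 comparisons (limma, Benjamini-Hochberg adjusted p under 0.05, 0% called in each). TAPBP was the gene furthest from 0 in MRX34 against both controls, followed by the dimmer of 2 HLA-F probes and HLA-C, all lower after MRX34, and the intervals around most estimates are wide. TAPBP was the only one of the 10 probes with an unadjusted p under 0.05 in that comparison, where 10.7% of all probes had one, and 4.18% had one in the lower direction.

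**Figure D1:**
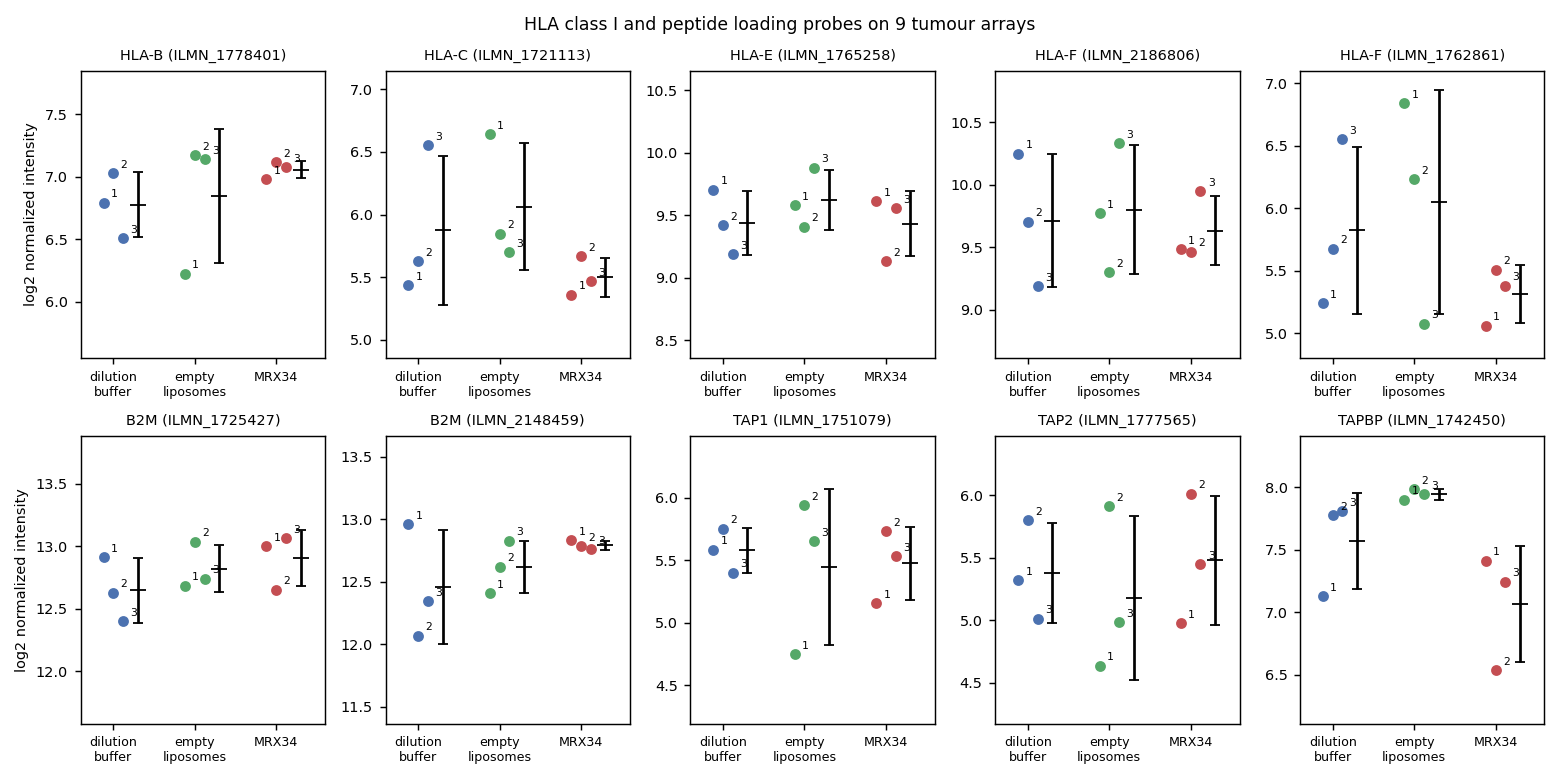
Log2 normalized intensity (vertical axis) of the 10 class I and loading probes past the detection filter on each of the 9 arrays, by treatment group. Points are arrays, and bars are the mean ± SD of 3 arrays; the MRX34 points for TAPBP, at 7.41, 6.54 and 7.25, lie below all 3 empty-liposome points and overlap the buffer points only through buffer array 1 at 7.13.

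TAPBP encodes tapasin, and its probe ILMN_1742450 was above background on all 9 arrays. Its log2 level was 7.13, 7.78 and 7.81 after dilution buffer, 7.90, 7.98 and 7.94 after empty liposomes, and 7.41, 6.54 and 7.25 after MRX34. In deposited intensity units the same arrays read 211, 291 and 296, then 310, 324 and 317, then 242, 164 and 223. Every MRX34 array was below every empty-liposome array, an order seen for 5.09% of all probes, and every empty-liposome array was above every buffer array, seen for 5.54%. MRX34 overlapped the controls because the first buffer array was lower than 2 of the MRX34 arrays. The MRX34 array 2 was the lowest of all 9.

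The TAPBP mean was 7.06 ± 0.465 (SD, n = 3) after MRX34 and 7.76 ± 0.317 (SD, n = 6) over both controls, a log2 difference of -0.69 (SE 0.243, 95% interval -1.24 to -0.15). The limma p was 0.0175 before and 0.411 after Benjamini-Hochberg adjustment over all probes, so the difference did not pass. Against empty liposomes alone the difference was -0.88 (SE 0.280, 95% interval -1.50 to -0.25, limma p 0.011, adjusted p 0.492), where 8.89% of all probes had an unadjusted p under 0.05 and 2.75% had one in the lower direction. Against dilution buffer it was -0.51 (SE 0.280, adjusted p 0.554), and empty liposomes against buffer gave 0.37 (SE 0.280, adjusted p 0.781). These comparisons share arrays. Thus the TAPBP difference was larger than its standard error in the MRX34 comparisons, and it did not survive adjustment in any.

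One MRX34 array carried much of the TAPBP difference. Without MRX34 array 2 the log2 difference from both controls was -0.43 (limma p 0.0929), whereas without the first buffer array it was -0.80 and without MRX34 array 1 it was -0.87. Against empty liposomes the value without MRX34 array 2 was -0.61 (limma p 0.0399), and against buffer it was -0.24 (limma p 0.362). Without the first buffer array, MRX34 against buffer was -0.73 (limma p 0.0331, adjusted p 0.421) and empty liposomes against buffer 0.15. With the GNMT and OTC level as a covariate the difference from both controls was -0.58 (limma p 0.0589), and without the 2 arrays highest in that level, an alternative chosen after seeing the data, it was -0.64 (limma p 0.0406). The other 2 TAPBP probes, ILMN_1773031 and ILMN_1782851, were above background on 2 arrays and on 0 arrays and gave no further measurement of the gene.

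**Figure D2:**
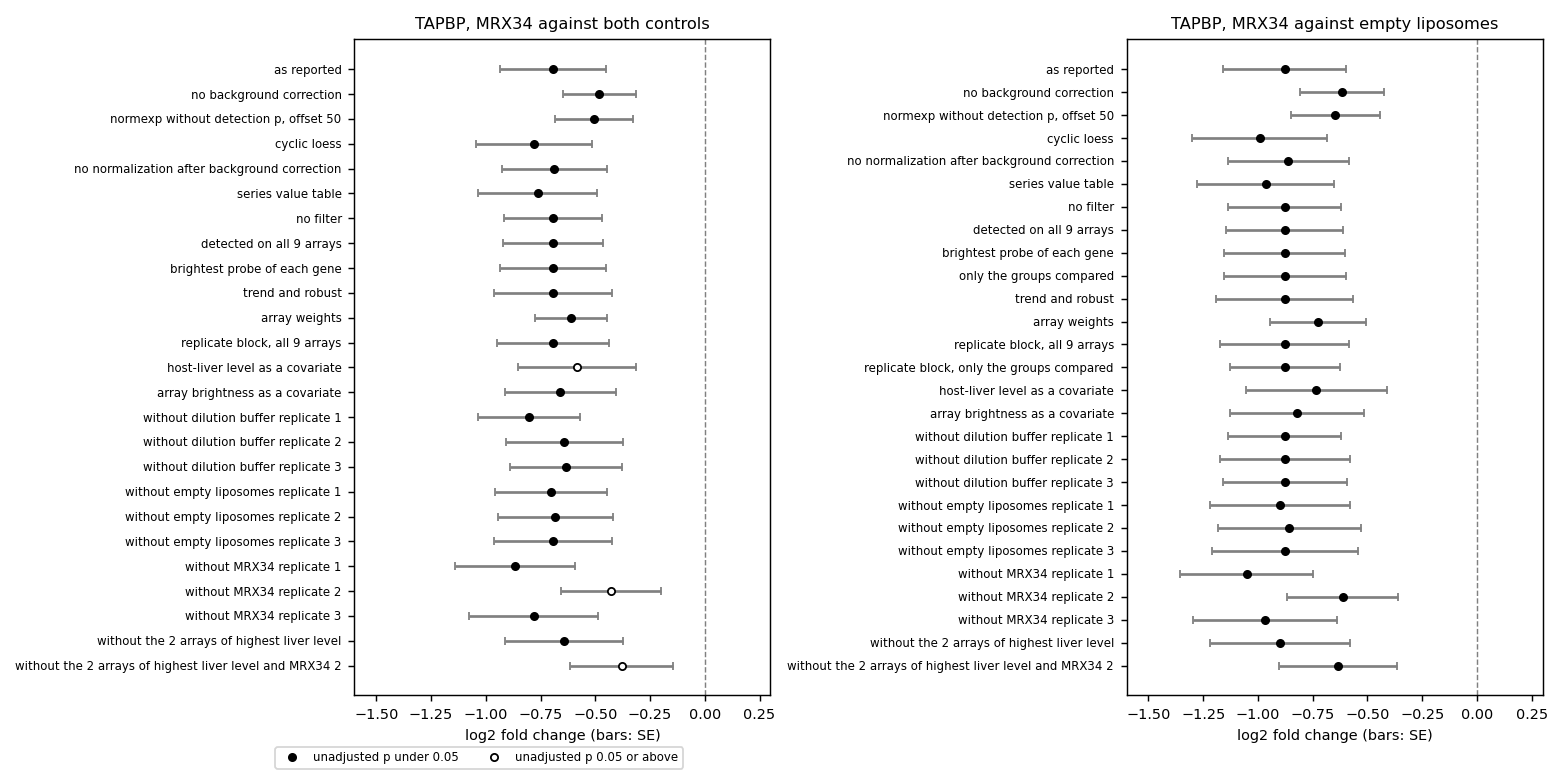
TAPBP log2 difference with its SE (horizontal axis) under each processing alternative and with arrays left out, for MRX34 against both controls (left) and against empty liposomes (right). Filled points have an unadjusted limma p under 0.05 and open points do not; all estimates are below 0, and the left panel ranges from -0.87 to -0.38.

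The transporter subunits TAP1 and TAP2 were close to background and their group means differed by less than the spread between arrays. TAP1 (probe ILMN_1751079) read 5.58, 5.75 and 5.40 after buffer, 4.75, 5.94 and 5.65 after empty liposomes, and 5.16, 5.73 and 5.53 after MRX34. TAP2 (probe ILMN_1777565) read 5.32, 5.80 and 5.01, then 4.64, 5.91 and 4.98, then 4.97, 6.01 and 5.45 in the same order. Within each group array 2 had the highest value for both genes, and the groups overlapped throughout. TAP1 was above background on 2 arrays of each group, and TAP2 on 2, 1 and 2 arrays of the buffer, empty-liposome and MRX34 groups.

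The log2 difference between MRX34 and both controls was -0.04 for TAP1 (SE 0.270, 95% interval -0.64 to 0.57, limma adjusted p 0.969) and 0.20 for TAP2 (SE 0.331, 95% interval -0.54 to 0.94, limma adjusted p 0.848). The intervals reach about 0.6 for TAP1 and 0.9 for TAP2, so differences up to that size lie within the intervals. Across the 9 arrays the levels of the subunits followed each other, with a Pearson r of 0.835 and a Spearman rho of 0.833, and r was 0.746 without dilution buffer 3 and empty liposomes 1. These coefficients are descriptions over arrays that share 1 normalization, and both genes also went with array brightness. Array 2, highest for both in each group, was the brightest of its group, with mean deposited intensities of 616 (buffer), 491 (empty liposomes) and 512 (MRX34). Empty liposomes 1, lowest for both, was the dimmest array at 163. Whether brightness accounts for the shared course was not tested. Without dilution buffer 3 and empty liposomes 1 the differences from both controls were -0.26 for TAP1 and -0.03 for TAP2 (limma adjusted p 0.697 and 0.983). A second TAP2 probe, ILMN_1759250, was above background on 1 array.

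B2M, the light chain that every class I heavy chain needs to reach the surface, was bright on all arrays. Probe ILMN_1725427 read 12.91, 12.63 and 12.40 after buffer, 12.68, 13.03 and 12.74 after empty liposomes, and 13.00, 12.65 and 13.06 after MRX34. Probe ILMN_2148459 read 12.96, 12.07 and 12.35, then 12.41, 12.62 and 12.83, then 12.83, 12.78 and 12.76. The MRX34 arrays lay inside the range of the controls for the second probe and exceeded it only through array 3 for the first. The highest array was 1.58-fold above the lowest for the first probe and 1.86-fold for the second.

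Both B2M probes had a positive log2 difference between MRX34 and both controls, 0.17 (SE 0.192, 95% interval -0.26 to 0.60, limma adjusted p 0.760) and 0.25 (SE 0.218, 95% interval -0.24 to 0.74, limma adjusted p 0.678). Against buffer alone the values were 0.26 (SE 0.222) and 0.33 (SE 0.252). When arrays were weighted by their estimated quality, the second probe reached 0.60 against buffer (SE 0.179, limma adjusted p 0.0499), the only call for any of these genes under any alternative. In that fit 2826 of all probes were called for the same comparison. The pair of B2M probes agreed only in part across arrays, with r of 0.594 and rho of 0.517 over 9 arrays.

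HLA-B, a classical heavy chain, had levels of 6.79, 7.03 and 6.51 after buffer, 6.23, 7.17 and 7.14 after empty liposomes, and 6.98, 7.12 and 7.08 after MRX34 (probe ILMN_1778401). The MRX34 arrays were tightly grouped at 7.06 ± 0.0699 (SD, n = 3) and lay within the upper part of the control range, 6.81 ± 0.380 (SD, n = 6). The log2 difference from both controls was 0.25 (SE 0.242, 95% interval -0.30 to 0.79, limma adjusted p 0.723). The low end of the controls was made by dilution buffer 3 and empty liposomes 1, and without these arrays the difference was 0.02. The HLA-B level followed that of TAP1 across arrays (r 0.804, rho 0.783, n = 9) and, less closely, that of TAP2 (r 0.689, rho 0.617, n = 9). Over the 7 arrays without that pair, r was 0.456 with TAP1 and 0.335 with TAP2.

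HLA-C, the other classical chain measured, read 5.44, 5.63 and 6.56 after buffer, 6.64, 5.85 and 5.70 after empty liposomes, and 5.36, 5.66 and 5.47 after MRX34 (probe ILMN_1721113, above background on 8 of 9 arrays). All MRX34 arrays were below all empty-liposome arrays, an order seen for 5.09% of all probes, and the MRX34 arrays overlapped the buffer arrays. The gap was small, with the highest MRX34 array at 5.66 and the lowest empty-liposome array at 5.70. The log2 difference from both controls was -0.47 (SE 0.295, 95% interval -1.13 to 0.19, limma adjusted p 0.565), and from empty liposomes alone -0.56 (SE 0.340, limma adjusted p 0.615). The highest values were again dilution buffer 3 and empty liposomes 1, and without them the difference from both controls was -0.16. With the GNMT and OTC level as a covariate it was -0.15. The second HLA-C probe, ILMN_2150787, was above background on no array.

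The same pair of arrays was highest for 2 of the 10 probes (HLA-C and the dimmer HLA-F probe) and lowest for 1 (HLA-B). Over all named probes past the filter, 5.60% had these arrays as their 2 highest and 11.0% as their 2 lowest. Over all 9 arrays HLA-B and HLA-C ran in opposite directions by Pearson's r, -0.798, with a rho of -0.1. Over the other 7 arrays r was 0.732, so the direction of that relation turned on these 2 arrays.

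**Figure D3:**
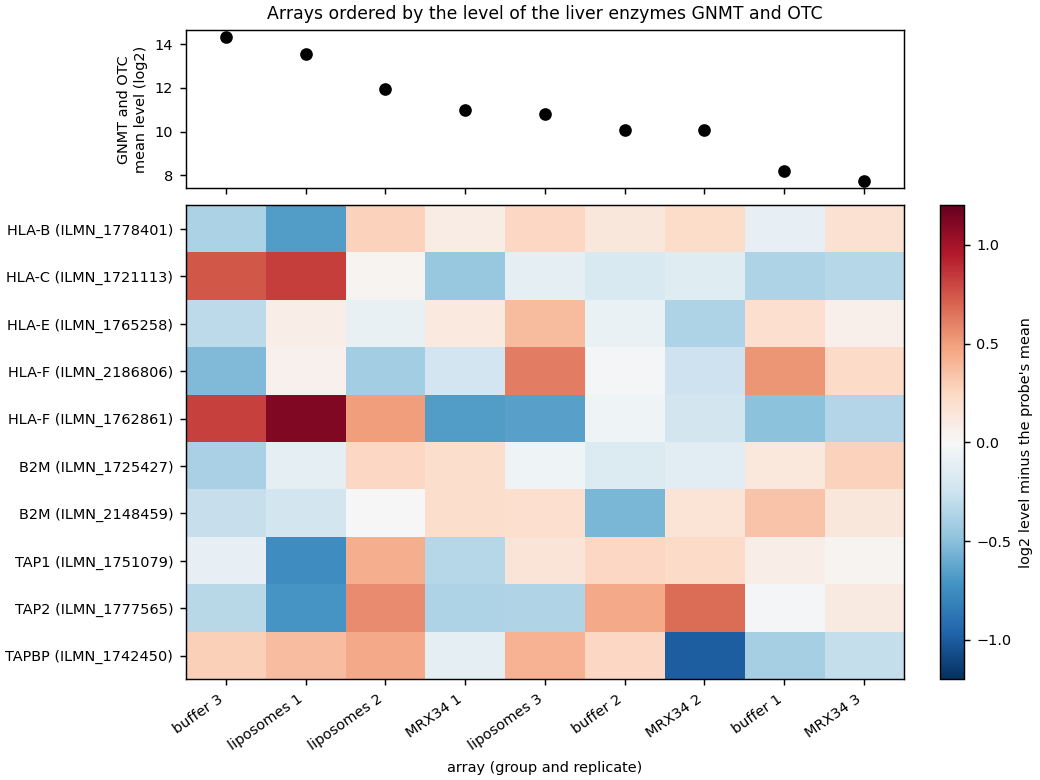
Log2 level of each class I and loading probe minus its own mean over the 9 arrays (colour), with the arrays ordered by the mean log2 level of GNMT and OTC. The arrays at the high end, empty liposomes 1 and dilution buffer 3, have the 2 highest values of HLA-C and of the dimmer HLA-F probe and the 2 lowest of HLA-B.

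HLA-E, which presents class I signal peptides to natural killer cells, read 9.70, 9.42 and 9.19 after buffer, 9.58, 9.41 and 9.88 after empty liposomes, and 9.61, 9.13 and 9.56 after MRX34 (probe ILMN_1765258). The groups overlapped fully, and the array range of 1.68-fold was among the narrower ones. The log2 difference between MRX34 and both controls was -0.10 (SE 0.203, 95% interval -0.55 to 0.36, limma adjusted p 0.884). The highest value was in empty liposomes 3 and the lowest in MRX34 array 2.

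HLA-F was measured by 2 probes that did not follow each other. The brighter, ILMN_2186806, read 10.25, 9.70 and 9.19 after buffer, 9.77, 9.30 and 10.33 after empty liposomes, and 9.48, 9.47 and 9.95 after MRX34. The dimmer, ILMN_1762861, read 5.24, 5.68 and 6.55, then 6.84, 6.23 and 5.08, then 5.06, 5.51 and 5.38, and was above background on 3, 2 and 2 arrays of the groups. Dilution buffer 3 was the lowest array for the brighter probe and the second highest for the dimmer, and over the 9 arrays r was -0.528 and rho -0.5. The MRX34 arrays overlapped the controls on both.

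For the brighter HLA-F probe the log2 difference between MRX34 and both controls was -0.12 (SE 0.292, limma adjusted p 0.897), and for the dimmer it was -0.62 (SE 0.393, 95% interval -1.50 to 0.26, limma adjusted p 0.570). Without dilution buffer 3 and empty liposomes 1 they were -0.26 and -0.24, and with the GNMT and OTC level as a covariate they were -0.43 (limma adjusted p 0.685) and -0.22. The brighter HLA-F probe tracked both probes of HLA-H, a class I pseudogene (r 0.941 and 0.930, rho 0.933 and 0.983, n = 9), and also HLA-E (r 0.821, rho 0.833). The dimmer HLA-F probe tracked HLA-C (r 0.918, rho 0.817) over 9 arrays. Over the 7 arrays without dilution buffer 3 and empty liposomes 1, its r was 0.72 with HLA-C, 0.816 with TAP2 and 0.782 with TAP1, and that of HLA-C with TAP1 was 0.886, so the relation was not particular to class I chains. Each of these probes was not above background on at least 1 array. Class I genes and pseudogenes are alike in sequence over long stretches, and whether a probe also binds transcripts of a neighbour was not tested.

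**Figure D4:**
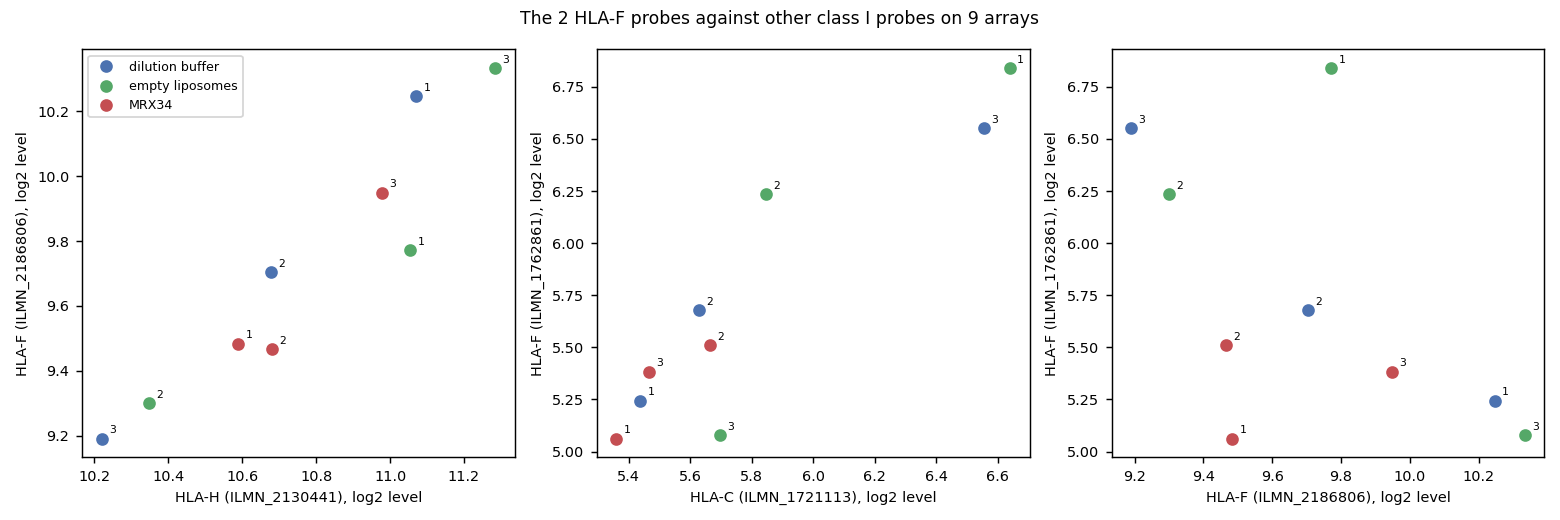
Log2 levels of probe pairs across the 9 arrays, each point an array coloured by group. The brighter HLA-F probe rises with HLA-H (r 0.941), the dimmer one rises with HLA-C (r 0.918), and the 2 HLA-F probes run opposite to each other (r -0.528).

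The 10 probes, with 2 each for B2M and HLA-F, are taken here as a set of values. In MRX34 against both controls 4 were higher and 6 lower (median log2 difference -0.07). Of all 19802 probes 10614 were higher (median 0.03). Against empty liposomes 5 were higher and 5 lower (median -0.07), beside 10892 higher of all probes (median 0.05). Against buffer 4 were higher and 6 lower (median -0.04), beside 10243 higher of all probes (median 0.02). In the latter 0 of the 10 had an unadjusted limma p under 0.05, where 10.0% of all probes had one. Empty liposomes against buffer had 8 higher and 2 lower (median 0.17), beside 8776 higher of all probes (median -0.05). Again 0 of 10 had an unadjusted limma p under 0.05, where 6.21% of all probes had one. None of these probes passed adjustment in limma.

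**Figure D5:**
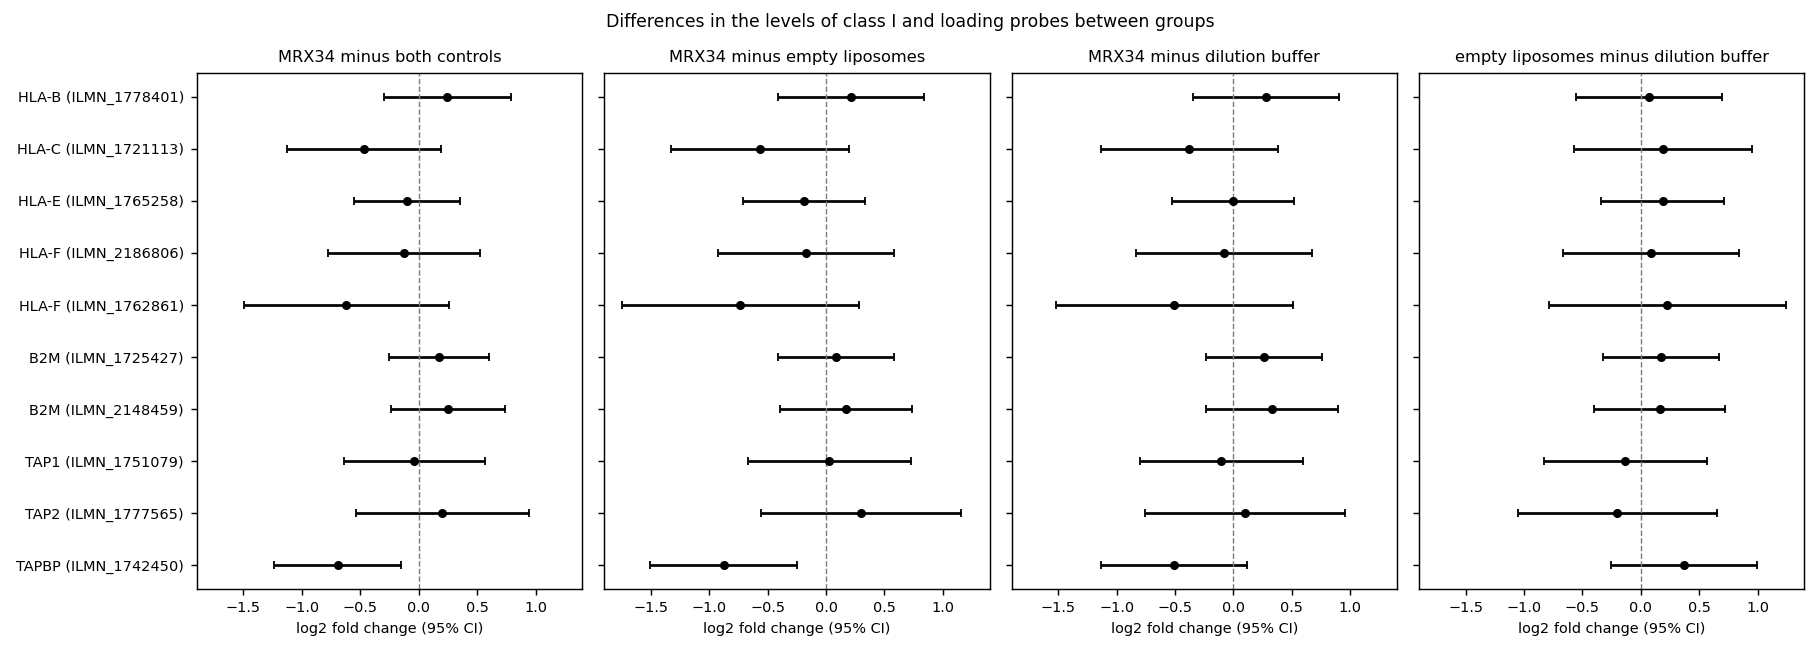
Log2 difference (horizontal axis) of each class I and loading probe with its 95% interval from limma, in each of the 4 comparisons. All intervals include 0 except those of TAPBP in MRX34 against both controls (-1.24 to -0.15) and against empty liposomes (-1.50 to -0.25).

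The partners that load and trim peptides in the endoplasmic reticulum gave no called gene among 9 measured of 10, with 5 higher and 4 lower in MRX34 than in both controls and a median log2 difference of 0.06. HSPA5 (BiP, the general chaperone of that compartment) was at 0.49 (limma p 0.0583), and ERAP2, a trimming peptidase listed under its older symbol LRAP, at -0.49 (limma p 0.0767). CANX, which folds free heavy chains, was at 0.46, ERAP1, the other trimming peptidase, at 0.06, and CALR at -0.14. PDIA3, the thiol partner of tapasin, was above background on 1 array only.

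The immunoproteasome and its activator had 5 genes measured of 6, with 2 higher, 3 lower and a median log2 difference of -0.03. The interferon-induced subunit PSMB10 was at 0.29 (limma p 0.183), the activator subunit PSME2 at -0.19 (limma p 0.261), and PSMB8, above background on 4 arrays, at -0.10. PSMB9, whose gene lies next to TAP1, was above background on 1 array. Of the standard catalytic subunits 1 was higher and 2 lower (median -0.08), with PSMB5 at -0.30 and PSMB7 at 0.15. No gene of either list was called by limma or had an unadjusted p under 0.05.

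Among 16 measured transactivators of class I genes, of 17 listed, 7 were higher and 9 lower in MRX34 than in both controls (median -0.05), and 1 in each direction had an unadjusted limma p under 0.05, where 10.7% of all probes had one. IRF9, the DNA-binding subunit of the type I interferon response complex, was at -0.54 (limma p 0.0248). IRF9 was at 0.62 in empty liposomes against buffer (limma p 0.0239) and at -0.85 in MRX34 against empty liposomes (limma p 0.00479), comparisons that share the empty-liposome arrays. RFXAP, a subunit of the complex that binds class I and class II promoters, was at 0.41 (limma p 0.039). IRF1 was at 0.43 (limma p 0.192), while NLRC5 was above background on no array. No transactivator was called after adjustment.

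Of 8 measured interferon receptors and kinases, of 9 listed, 5 were higher and 3 lower (median 0.05), with 1 in each direction at an unadjusted limma p under 0.05 beside the 10.7% of all probes. SOCS1, the feedback inhibitor of interferon signalling, was at -0.74 (limma p 0.00892, adjusted p 0.394). IFNGR1, the ligand-binding chain of the interferon-gamma receptor, was at 0.54 (limma p 0.0385). No gene of this list was called.

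The genes whose levels most resembled the mean of the 8 class I and loading genes over the 9 arrays were RIN3, RNF207 (listed as C1orf188), PRKAR1B, LOC653354 and THPO. In that order they were above background on 4, 6, 8, 6 and 9 arrays, so all but THPO include values near background. That mean, centred on 0, was 0.01, 0.08 and -0.13 after buffer, -0.11, 0.19 and 0.16 after empty liposomes, and -0.14, -0.10 and 0.03 after MRX34. Pearson's r was 0.946 for RIN3, with rho of 0.9 and with r of 0.891 once the 2 most distant arrays, empty liposomes 2 and 3, were left out, and 0.943, 0.937, 0.937 and 0.935 for the others. These 5 genes are the highest of 15379 searched over 9 arrays, so high values arise from the search itself. The mean spans a narrow range and does not separate the groups.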

How the data were processed

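Total RNA of the 9 tumour samples was biotin-labelled and hybridised to Illumina bead arrays, per the labels' protocols. The deposited table gives, per the file headers, a signal intensity and a detection p-value for every probe and array. The table is named as not normalized, yet its sorted columns differ by at most 1.66 intensity units and each runs from 50.3 to 47789, and it ranks probes like the series value table (rank correlation at least 0.999982 on each array). How the authors made these intensity values, and with which software, is not given in the sources used here. The deposited detection p-value moves in steps of 1 in 770. The number of arrays limits the precision.

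Probes without a symbol (3270), spike-in probes (92) and symbols turned into dates (54) were set aside, leaving 43906. Symbols were updated through RefSeq names: 27035 were current, 4626 were synonyms and 12245 were kept as listed. Intensities were corrected with normexp using the detection p-values (offset 16), then quantile normalized, and log2 values were taken. Testing was limited to probes detected (p under 0.05) on 3 or more of the 9 arrays. limma 3.58.1 in R 4.3.3 fitted all 9 arrays with a mean per group and a two-sided moderated test per probe, with Benjamini-Hochberg adjustment over 19802 probes. The 4 comparisons were MRX34 against both controls (equally weighted), against each control, and carrier against buffer.

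The genes and lists were chosen with earlier results of these data known, GNMT and OTC after their values were seen. All probes of the 8 genes are given. Of every other list the 2 genes with the smallest p in MRX34 against both controls are named, with NLRC5, IRF1, PSMB8, PSMB9, ERAP1, CALR, PDIA3 and CANX always given, each by its brightest probe. Some values of single genes are not reported here. Resemblance was Pearson's r with the mean over the 8 genes.

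Alternatives covered background correction, normalization, the series value table, the filter, 1 probe per gene, the samples fitted, trend and robust variance, array weights, a replicate block, covariates and each array left out. Headers give no slide, so no slide term could be fitted. Deviations of same-numbered arrays correlated at 0.44, 0.48 and 0.28 between empty liposomes and MRX34. Arrays of unlike number were not compared, so these values do not show a pairing, and no label states one. The main tests were unpaired, and only the replicate-block alternative treated those numbers as pairing arrays. With that block fitted to empty liposomes and MRX34 alone, TAPBP was at -0.88 (limma p 0.0139, adjusted p 0.278). Between buffer and empty liposomes the values were -0.19, 0.29 and -0.31, and between buffer and MRX34 -0.07, 0.1 and -0.14.

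On simulated data with 200 changed probes of 19802, limma called 23% of probes shifted by 1 log2 unit and 78.6% of those shifted by 2 in MRX34 against both controls, 12% and 69.8% against empty liposomes, and 12% and 68.8% against buffer. Sequences are RefSeq's (GRCh38.p14), HLA-E being named only.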

Additional observations from a re-analysis of the deposited data

Results flagged for a closer look

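The TAPBP level of dilution buffer array 1 (log2 level 7.13) lay apart from the other 5 control arrays, which read 7.78 to 7.98. Its gap to the nearest control was 0.759 of the range of the 6 controls, above the 95% critical value of 0.625 in Dixon's test. No other class I or loading probe had such a control array among the 10 tested, and chance marks about 1 in 20 groups. Leaving that array out gave a log2 difference of -0.80 for MRX34 against both controls.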

How the results depend on the processing

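No probe was called in 19 of 24 alternatives for MRX34 against both controls, in 23 of 26 against empty liposomes, and in 25 of 26 both against buffer and for carrier against buffer. The exceptions for MRX34 against both controls were 2 calls with detection required on all 9 arrays, 1 with trend and robust variance and 1 without dilution buffer 3, empty liposomes 1 and MRX34 2. That omission also gave 1 call against empty liposomes. Leaving out 1 array gave 0 to 1 calls against both controls (1 without dilution buffer 1) and 0 to 2 against empty liposomes (2 without empty liposomes 2). Array weights gave 1287, 272, 2826 and 122 calls in the 4 comparisons, with weights from 0.262 (empty liposomes 1) to 7.98 (dilution buffer 2). The median of the class I and loading probes against buffer was 0.13 with detection required on all 9 arrays, beside -0.04. The cause of these differences was not tested. With the replicate block 0 probes were called in every comparison, TAPBP stayed at -0.69 (limma adjusted p 0.38) and no call changed.

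Of 40 pairs of probe and comparison, 39 were called under no alternative and 19 never changed sign, with 70 sign changes in 996 values. TAPBP against both controls ranged from -0.87 to -0.38 with no sign change, and had an unadjusted limma p under 0.05 in 21 of 24 alternatives (adjusted p 0.0533 to 0.8). Against empty liposomes it ranged from -1.05 to -0.61, with an unadjusted limma p under 0.05 in all 26 (adjusted p 0.113 to 0.932). The alternatives leaving out several arrays were chosen after seeing the data. Signal near background limits TAP1, TAP2, HLA-C and the dimmer HLA-F probe.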

Other observations

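Other class I like genes gave 8 measured of 12 on the array, with 1 higher and 7 lower in MRX34 than in both controls (median log2 difference -0.12). Of all 19802 probes tested 10614 were higher (median 0.03). MR1, which presents vitamin metabolites to innate-like T cells, was at 0.67 (limma p 0.0979), and MICA, a stress ligand of the NKG2D receptor, at -0.61 (limma p 0.0515). None was called by limma.

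Of the 7 measured leukocyte markers, 3 were higher and 4 lower in MRX34 than in both controls, with a median log2 difference of -0.02. CD3D was at 0.97 (limma p 0.00125) and was above background on all 3 MRX34 arrays and on 1 control array. CD68, a macrophage marker, was at 0.42 (limma p 0.044) and LYZ at 0.40 (limma p 0.559). AIF1, MS4A1, CD14 and CSF1R were at -0.41, -0.20, -0.03 and -0.02. Of 4 measured class II genes 2 were higher and 2 lower, with HLA-DRA at 0.52 and CD74 at -0.23. HLA-DMB, a class II peptide editor, was at 0.83 (limma p 0.0096) and HLA-DMA, its partner, at -0.33 (limma p 0.166), with HLA-DPA1 and CIITA above background on no array. PECAM1 was at 0.73 (limma p 0.00389) and was above background on 1 buffer, 1 empty-liposome and 3 MRX34 arrays. CD3D and PECAM1 met the detection filter of 3 arrays only through the MRX34 arrays, so their p-values are not an independent test. VWF, CDH5, KDR, ENG and TEK were above background on no array. GNMT was at -2.21 and OTC at -1.57. None of these was called by limma after adjustment. Leukocytes and endothelium here would be mouse cells, and whether the probes bind mouse transcripts was not tested. The marker values are therefore not a measure of such cells.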
